A study of Oryza sativa Japonica Group with 12 samples.

Results

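Sugar transport and sugar metabolism were followed through 57 genes of rice, out of 24160 genes whose probe sets on the array match no other gene. The members were taken by gene symbol or synonym: the SWEET, SUT and MST transporters, sucrose synthases (SUS), sucrose phosphate synthases (SPS), invertases (CIN and NIN), hexokinases (HXK) and trehalose phosphate phosphatases (TPP). No gene with a TMT, VIN or trehalose phosphate synthase (TPS) symbol entered. A pair of phosphatase genes, TPP1 and TPP8, was left out by the rule. Expression was measured in stem bases, the part of the seedling from which crown roots emerge, of 6-day-old plantlets. All lines, the null lines included, carry the crl1 mutation, which impairs crown root formation, in the japonica cultivar Taichung 65. Whether crown roots form in each line was not examined here. OE 67.1 and OE 67.5 are transgenic lines that overexpress the transcription factor gene OsbHLH044 from the construct pC5300.OE-OsbHLH044. The promoter of the construct is not given in the sources used here. Null 67.1 and null 67.5 are their sister lines, which lost the T-DNA by segregation. Null and OE 67.1 come from 1 transformed family, and null and OE 67.5 from another. Each of the 3 arrays of a line holds 1 independent repetition with several stem bases pooled, which gives 12 arrays in 4 lines.

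Sucrose made in leaves is the main form in which rice moves carbon to growing tissue. SWEET proteins let sugars leave cells or compartments along their gradient, whereas SUT and MST proteins take up sucrose or monosaccharides with protons. In the receiving tissue sucrose is cleaved by invertases or by sucrose synthases, and the hexoses are phosphorylated by hexokinases, some of which also act as glucose sensors. Sucrose phosphate synthases make sucrose, and trehalose phosphate phosphatases remove trehalose 6-phosphate, a signal of the sucrose level.

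The names were checked against the gene table first. SPS1 (LOC4341844) and SPS2 (LOC9267741) carry symbols that rice also uses for solanesyl diphosphate synthases, and the TPP2 entry LOC4330237 is also listed as TPPII, the symbol of a tripeptidyl peptidase. These 3 entries stay among the 57 members by the rule and are reported apart. Among all members 14 share a symbol with another member, above all the hexokinases. HXK4, for example, is listed both for LOC4326776, whose other symbol is HXK8, and for LOC4342654. The first is written HXK4/HXK8 here and the second HXK4 (LOC4342654).

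All levels are log2 values after RMA, a normalization that sets the arrays on 1 scale. The medians of the 12 arrays lay between 4.34 and 4.39. No filter on low values was applied, so all 57 members were tested. Of these, 28 lay above the array median on all 12 arrays and 20 below it on all 12, against 46.9% and 38.0% of the 24251 tested probe sets. All 5 SPS members were above the median on every array, SPS1 and SPS2 (LOC9267741) with their solanesyl diphosphate synthase symbols included. Of 9 invertases, 7 were below it on every array. The median SD within lines was 0.124 over the members, and the line means of a member spanned a median of 0.26 and at most 0.97. A span of at least 0.5 was reached by 6 members. No meristem marker could be looked up by name, so the tissue label was not checked with such genes. The 3 green leaf markers found, of 5, had a mean level of 7.49 to 7.58 in null 67.5 and of 7.10 to 7.38 in the other lines. The 4 root markers found, of 5, had mean levels of 4.16 to 4.47 in null 67.5 and of 3.98 to 4.24 elsewhere. Of 6 seed endosperm markers 4 were found, with mean levels of 2.60 to 2.84 in null 67.5, 2.62 to 2.77 in null 67.1 and 2.47 to 2.60 in the overexpressing lines. These 4 did not move together. Overexpressing minus null, averaged over 67.1 and 67.5, AMY1.1 differed by -0.605, GLUA1 by -0.123, AMY3D by -0.019 and GLUA2 by 0.026. The part of these tissues in the results was not tested, and in such bulk samples fewer cells of a type cannot be told apart from less RNA per cell.

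**Figure D1:**
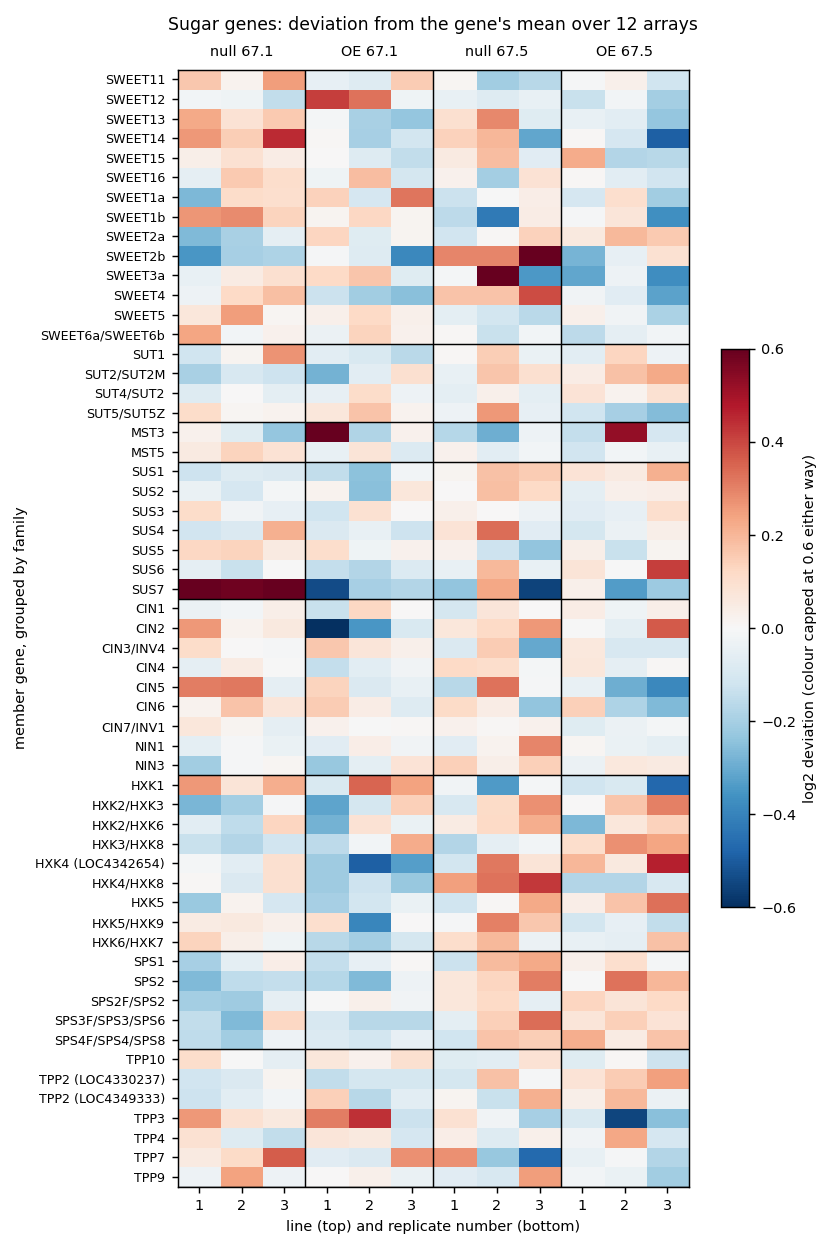
Log2 deviation of each of the 57 genes (rows, by family) from its own mean over the 12 arrays (columns, by line and replicate); red is above and blue below the mean. The strongest blocks of colour are SUS7 in null 67.1 and SWEET2b in null 67.5.

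The overexpressing lines were set against their null sisters to find sugar genes that changed with OsbHLH044, first as the mean of both couples. The hexokinase gene HXK4/HXK8 (LOC4326776) was lower in both overexpressing lines and was the 1 member of 57 that passed the threshold, an adjusted p below 0.05 in limma over all tested probe sets (0.186% of them passed, and 0.124% were lower). SWEET4, a hexose transporter gene known for its part in grain filling, was lower by nearly as much without passing. In all, 36 members were lower and 21 higher, against 46.8% lower and 53.2% higher among all tested probe sets. The median difference of the members was -0.04, beside 0.008 over all tested probe sets. At an unadjusted p below 0.05 there were 9 lower members (15.8%) and 2 higher ones (3.51%), where 4.39% and 4.61% of all tested probe sets lay. The 9 lower members include SWEET4 and HXK4/HXK8. Both had been singled out with earlier results of these data known, so the share of 15.8% is no independent support. Without the 3 entries with symbols of other enzymes, 35 of 54 were lower.

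HXK4/HXK8 was measured at 4.21, 4.12 and 4.30 on the arrays of null 67.1 and at 3.99, 4.08 and 3.98 on those of OE 67.1. In couple 67.5 its null arrays stood at 4.45, 4.53 and 4.63, and the overexpressing arrays at 4.03, 4.03 and 4.11. The groups did not overlap in either couple, and the null line of couple 67.5 was the highest of the 4 lines. The difference was -0.34 ± 0.06 (log2 difference ± SE, limma adjusted p = 0.0393) for the mean of both couples. It was -0.48 ± 0.085 in couple 67.5 (adjusted p = 0.0259) and -0.19 ± 0.085 in couple 67.1 (adjusted p = 1). The difference between the couples, 0.29 ± 0.12, did not pass (adjusted p = 0.99, 95% interval 0.03 to 0.55). Null 67.1 minus null 67.5, where no transgene is present, was -0.33 ± 0.085 (limma adjusted p = 0.107), close in size to the mean difference. OE 67.1 minus OE 67.5 was -0.04 ± 0.085. The call on the mean was lost without any 1 of the 12 arrays (adjusted p = 0.0527 to 0.107). In couple 67.5 the call did not hold when null 67.5 replicate 2, null 67.5 replicate 3 or 1 of the OE 67.5 arrays was left out (adjusted p up to 0.105). This gene was weakly measured and lay above the array median on 3 of the 12 arrays, those of null 67.5. The averaged green leaf markers were likewise higher on each null 67.5 array than on any other array, and their part in the result was not tested.

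SWEET4 (LOC4329093) stood at 7.77, 7.92 and 7.98 in null 67.1 and at 7.67, 7.59 and 7.55 in OE 67.1. The values in couple 67.5 were 7.97, 7.97 and 8.19 in the null line against 7.78, 7.73 and 7.48 in the overexpressing line. Each overexpressing array was below every null array of its couple. SWEET4 and HXK4/HXK8 were the 2 members (3.51%) that were lower without overlap in both couples, which 0.660% of all tested probe sets were. Both genes had been singled out with earlier results of these data known, so the share of 3.51% is no independent support. No member was higher without overlap in both (0.544% of all). The SWEET4 difference was -0.34 ± 0.07 for the mean (adjusted p = 0.106), -0.28 ± 0.10 in couple 67.1 (adjusted p = 1) and -0.38 ± 0.10 in couple 67.5 (adjusted p = 0.176). The couples differed by 0.10 ± 0.145, with an interval of -0.21 to 0.41. Between the null lines the difference was -0.15 ± 0.10 (adjusted p = 0.448).

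**Figure D2:**
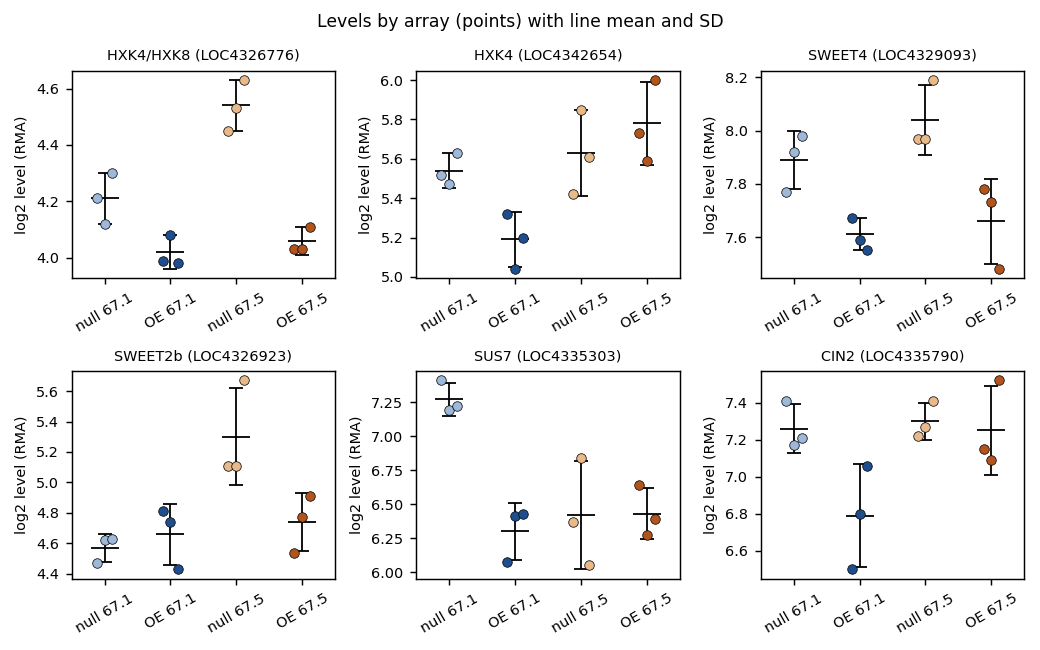
Log2 level on each array (points) with line mean and SD (bars, n = 3) for 6 members, with axes that do not start at 0. SWEET4 and HXK4/HXK8 are lower in the overexpressing line of each couple, SUS7 is high only among the arrays of null 67.1 (7.19 to 7.41), and SWEET2b is highest in null 67.5.

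Of the 14 SWEET genes 10 were lower and 4 higher on the mean of both couples, with a median of -0.04, and none passed. SWEET13 and SWEET14, sucrose transporters that bacterial blight pathogens switch on in rice leaves, lay on the low side in both couples. SWEET13 (LOC4352201) had levels of 9.16, 9.02 and 9.09 in null 67.1, 8.92, 8.74 and 8.70 in OE 67.1, 9.03, 9.22 and 8.86 in null 67.5 and 8.89, 8.87 and 8.70 in OE 67.5. Its lines were separated in couple 67.1 and overlapped in couple 67.5, with a mean difference of -0.26 ± 0.07 (adjusted p = 0.275). SWEET14 (LOC4350572) had means of 5.11 ± 0.15 (SD, n = 3) and 4.72 ± 0.10 in null and OE 67.1 and of 4.83 ± 0.28 and 4.63 ± 0.26 in null and OE 67.5. The SWEET14 difference was -0.29 ± 0.10 (adjusted p = 0.409). SWEET11, of the same sucrose-carrying clade, differed by -0.02 ± 0.07 (95% interval -0.17 to 0.12). SWEET12 (LOC4332825) went the other way in couple 67.1, with 4.19, 4.10 and 3.75 in OE 67.1 and 3.76, 3.75 and 3.63 in null 67.1. These SWEET12 arrays overlapped, and the difference of 0.30 ± 0.11 did not pass (adjusted p = 1). The weakly measured SWEET6a/SWEET6b, 1 probe set for both names, ranged from 2.40 to 2.79.

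SWEET2b (LOC4326923) had its high values in null 67.5. This gene encodes a glucose carrier of the vacuole membrane. The null 67.5 arrays read 5.11, 5.11 and 5.67, while null 67.1 read 4.47, 4.62 and 4.63, OE 67.1 read 4.81, 4.74 and 4.43 and OE 67.5 read 4.54, 4.77 and 4.91. Null 67.5 did not overlap any other line. The difference in couple 67.5 was -0.56 ± 0.15 (adjusted p = 0.182) and that in couple 67.1 was 0.09 ± 0.15 (adjusted p = 1). Null 67.1 was lower than null 67.5 by 0.72 (log2 difference -0.72 ± 0.15, adjusted p = 0.0628), which passed in 1 of the 12 fits that left out 1 array, that without null 67.5 replicate 1 (adjusted p = 0.0216, against up to 0.272 in the others). Without null 67.5 replicate 3, which held the highest value, the difference was -0.54 between the null lines (adjusted p = 0.256) and -0.37 in couple 67.5 (adjusted p = 0.328). The difference between the overexpressing lines was -0.08 ± 0.15 (95% interval -0.40 to 0.24). The green leaf markers stood highest in the same line, at the levels given above, and their part in this result was not tested.

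Among the carriers that take up sucrose or monosaccharides, none passed. The 4 SUT genes lay between -0.11 and 0.08 on the mean of both couples. SUT1 (LOC4331775), a sucrose transporter of phloem loading and germination, differed by -0.09 ± 0.07 with an interval of -0.25 to 0.06. For SUT2/SUT2M (LOC9266530) the difference was 0.07 ± 0.07 with an interval of -0.09 to 0.22. SUT5/SUT5Z (LOC4329756) was low in OE 67.5, with 3.68, 3.60 and 3.54 against 3.77, 4.06 and 3.75 in null 67.5, 3.87, 3.97 and 3.82 in OE 67.1 and 3.91, 3.81 and 3.82 in null 67.1. The arrays of couple 67.5 did not overlap, and the difference of -0.25 ± 0.10 did not pass (adjusted p = 0.363). The monosaccharide carrier MST3 (LOC4342198) differed by 0.26 ± 0.14 on the mean of both couples (adjusted p = 0.619), the highest value among the 57 members. Single arrays stood out in it, 5.66 in OE 67.1 and 5.54 in OE 67.5, while the other 10 arrays lay between 4.72 and 5.04. The difference was 0.14 without the first of these arrays (OE 67.1 replicate 1) and 0.15 without the other (OE 67.5 replicate 2). MST5 (LOC4344808) was weak on all arrays, from 2.26 to 2.51.

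Among the 7 sucrose synthase genes SUS7 (LOC4335303) stood apart. SUS7 was read at 7.41, 7.19 and 7.22 in null 67.1 and at 6.07, 6.41 and 6.43 in OE 67.1. Null 67.5 gave 6.37, 6.84 and 6.05 and OE 67.5 gave 6.64, 6.27 and 6.39. Null 67.1 did not overlap any other line, and the other 3 lines overlapped one another. The difference in couple 67.1, -0.97 ± 0.17, had rank 9 by p among all tested probe sets and did not pass (adjusted p = 0.127). In couple 67.5 it was 0.02 ± 0.17, with an interval of -0.34 to 0.38. The couples differed by -0.98 ± 0.24 (adjusted p = 0.455) and the null lines by 0.85 ± 0.17 (adjusted p = 0.0546). Null 67.5 replicate 2 held the high value of its line. Of the 12 fits that left out 1 array, the difference in couple 67.1 passed in 1, that without this array (adjusted p = 0.0257), and had an adjusted p of up to 0.619 in the others. The difference between the null lines passed in 2, the first without this array (1.06, adjusted p = 0.0152). The other was without null 67.5 replicate 1 (adjusted p = 0.0347), where 4.59% of all tested probe sets passed. In the remaining fits the adjusted p between the null lines reached 0.257. Without null 67.5 replicate 3 this difference was 0.67 (adjusted p = 0.256). The other 6 sucrose synthase genes lay between -0.12 and 0.03 on the mean of both couples, and the weakest of them, SUS5 (LOC4335447), at 2.47 to 2.84, differed by 0.01 ± 0.06. SUS1 (LOC4333062), with levels of 7.63 to 8.09, differed by -0.02 ± 0.06 (95% interval -0.15 to 0.11).

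Of the 9 invertase genes 7 were lower on the mean of both couples, with a median of -0.04, and none passed. CIN2 (LOC4335790), the cell wall invertase also listed as GIF1 and known for its role in grain filling, was low in OE 67.1. Its values there were 6.50, 6.80 and 7.06, against 7.41, 7.17 and 7.21 in null 67.1, 7.22, 7.27 and 7.41 in null 67.5 and 7.15, 7.09 and 7.52 in OE 67.5. OE 67.1 lay below every array of the other lines. The CIN2 difference was -0.48 ± 0.14 in couple 67.1 (adjusted p = 1) and -0.05 ± 0.14 in couple 67.5, and the couples differed by -0.43 ± 0.20 (adjusted p = 0.992). Its direct neighbour in the gene table, CIN3/INV4 (LOC4335789), stayed at 3.19 to 3.66 on all arrays and differed by 0.06 ± 0.11 in couple 67.1. The other neighbours, CIN5 (LOC4337313) and CIN6 (LOC4337312), differed by -0.24 ± 0.10 and -0.06 ± 0.08 on the mean of both couples. Neither passed, and their null and overexpressing arrays overlapped in both couples. The neutral invertases NIN1 and NIN3, which cleave sucrose inside the cell, differed by -0.04 ± 0.07 each, and the dimmest of the family, CIN4 (LOC4324001), by -0.07 ± 0.06.

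**Figure D3:**
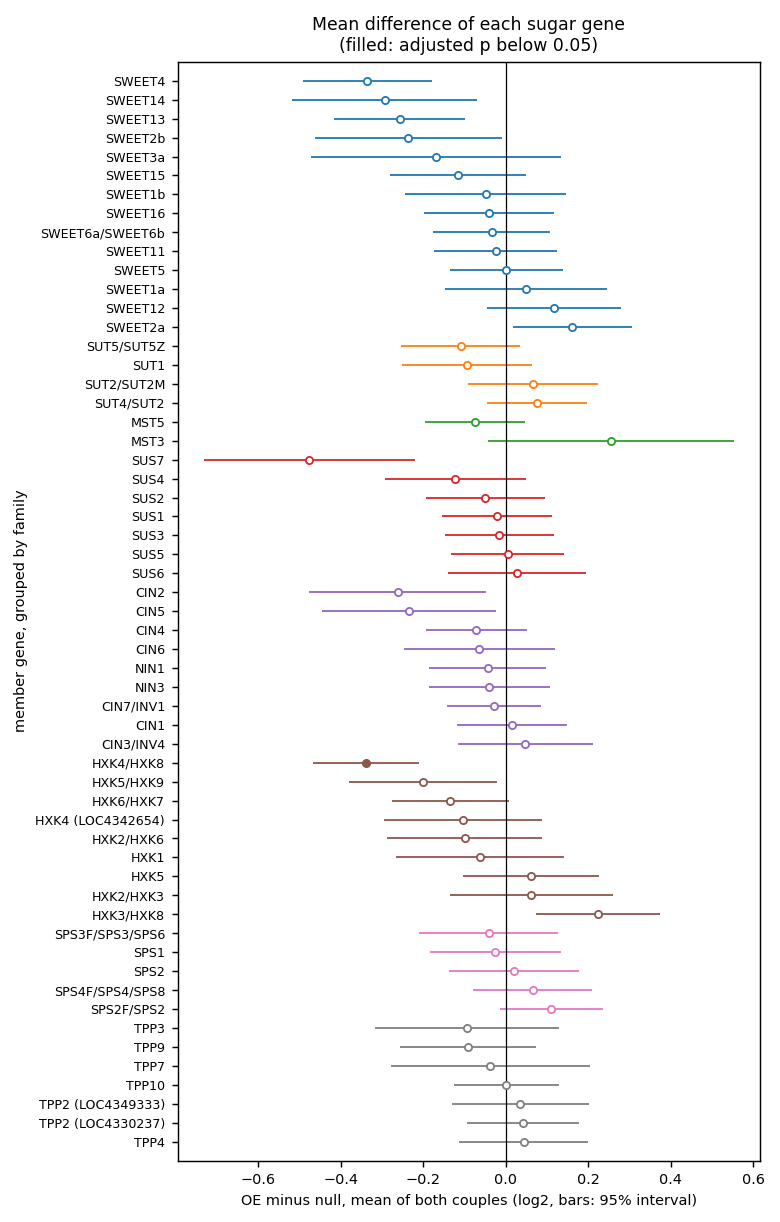
Log2 difference between overexpressing and null lines, mean of both couples, for each of the 57 genes, with 95% intervals from limma; filled points passed an adjusted p of 0.05. The filled point is HXK4/HXK8 at -0.34.

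The 9 hexokinase genes did not move together. On the mean of both couples 6 were lower and 3 higher, and the dimmest, HXK1 (LOC4343113), differed by -0.06 ± 0.095. HXK3/HXK8 (LOC4326516) was the highest among them, with a difference of 0.22 ± 0.07 (adjusted p = 0.337). Its arrays read 5.74, 5.70 and 5.76 in null 67.1 against 5.72, 5.86 and 6.10 in OE 67.1, and 5.70, 5.82 and 5.86 in null 67.5 against 5.98, 6.15 and 6.11 in OE 67.5. The lines were separated in couple 67.5 and overlapped in couple 67.1. HXK5/HXK9 (LOC4324666) differed by -0.20 ± 0.08 (adjusted p = 0.507). HXK4 (LOC4342654) differed between the overexpressing lines, with 5.32, 5.04 and 5.20 in OE 67.1 against 5.73, 5.59 and 6.00 in OE 67.5. The null lines overlapped, at 5.52, 5.47 and 5.63 in null 67.1 and 5.42, 5.85 and 5.61 in null 67.5. OE 67.1 was lower than OE 67.5 by 0.59 (log2 difference -0.59 ± 0.13, adjusted p = 0.0470), the 1 member that passed in this comparison, where 0.829% of all tested probe sets did and 0.511% were lower. It passed in 4 of the 12 fits that left out 1 array, those without OE 67.1 replicate 3, null 67.5 replicate 1 or 2 or OE 67.5 replicate 1 (highest adjusted p of the others 0.206). Within the couples HXK4 (LOC4342654) differed by -0.35 ± 0.13 in 67.1 and 0.15 ± 0.13 in 67.5, and the difference between them, -0.50 ± 0.18, did not pass (adjusted p = 0.874).

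The 5 SPS entries lay between -0.04 and 0.11 and the 7 phosphatase entries between -0.09 and 0.04 on the mean of both couples, and none passed. SPS2F/SPS2 (LOC4328527) had the smallest p of its family, with 0.11 ± 0.06 (adjusted p = 0.608), and its lines were separated in couple 67.1, at 5.89, 5.88 and 6.04 in the null line and 6.09, 6.12 and 6.07 in OE 67.1. SPS4F/SPS4/SPS8 (LOC4345220) differed by 0.07 ± 0.07. TPP7 (LOC4346885), known for germination without oxygen, differed by -0.04 ± 0.11 (95% interval -0.28 to 0.20). TPP9 (LOC4332996) differed by -0.09 ± 0.08 and TPP10 (LOC4343248), with 2.51 to 2.74 on all arrays, by 0.00 ± 0.06. The solanesyl diphosphate synthase symbols SPS1 and SPS2 (LOC9267741) had differences of -0.02 ± 0.07 and 0.02 ± 0.07, and the TPP2/TPPII entry (LOC4330237) one of 0.04 ± 0.06.

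Taken couple by couple, 34 members were lower in couple 67.1 and 33 in couple 67.5, where 47.3% of all tested probe sets were lower in each. The couples share no array, and 36 members had the same sign in both (63.2%, against 56.6% of all tested probe sets). No member passed in couple 67.1 (0.0165% of all) and 9 had an unadjusted p below 0.05 in limma (3.46% of all), 8 of them lower (1.91%) and 1 higher (1.55%). In couple 67.5 the 1 member that passed was HXK4/HXK8 (0.342% of all, 0.239% lower), and 6 had an unadjusted p below 0.05 (10.8% of all), 5 of them lower (5.10%) and 1 higher (5.69%). Of the 4 lines OE 67.1 had the lowest mean for 20 members (35.1%, against 21.6% of all), and null 67.1 had the highest for 18 (31.6%, against 22.7%). Null 67.5 had the highest for 16 (28.1%, against 20.4%) and the lowest for 7 (12.3%, against 19.7%). For OE 67.5 these were 16 (28.1%, against 36.4%) and 16 (28.1%, against 29.9%). OE 67.1 was highest for 7 (12.3%, against 20.5%) and null 67.1 lowest for 14 (24.6%, against 28.8%). Arrays did not overlap and were lower in the overexpressing line for 10 members in couple 67.1 (17.5%, against 4.48% of all) and for 6 in couple 67.5 (10.5%, against 6.88%). They were higher without overlap for 1 member in each couple, SPS2F/SPS2 in 67.1 and HXK3/HXK8 in 67.5 (4.80% and 8.00% of all). In each couple the lower members without overlap, and those at an unadjusted p below 0.05, include SWEET4 and HXK4/HXK8. Both genes had been singled out with earlier results of these data known, so these shares are no independent support. The 10 in couple 67.1 were SWEET1b, SWEET4, SWEET13, SWEET14, SWEET15, SUS7, CIN2 and 3 hexokinases, namely HXK4 (LOC4342654), HXK4/HXK8 and HXK6/HXK7. The 6 in couple 67.5 were SWEET2b, SWEET4, SUT5/SUT5Z, CIN7/INV1, HXK4/HXK8 and HXK5/HXK9. Some of these differences were small in weakly measured genes. CIN7/INV1, at 2.96 to 3.10 over all arrays, differed by -0.06 ± 0.075 in couple 67.5. SWEET15, at 2.80 to 3.20, differed by -0.13 ± 0.11 in couple 67.1. No member passed for the difference between the couples (0.0330% of all), 7 had an unadjusted p below 0.05 (5.00% of all), and no member was separated in opposite directions (0.408% of all).

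**Figure D4:**
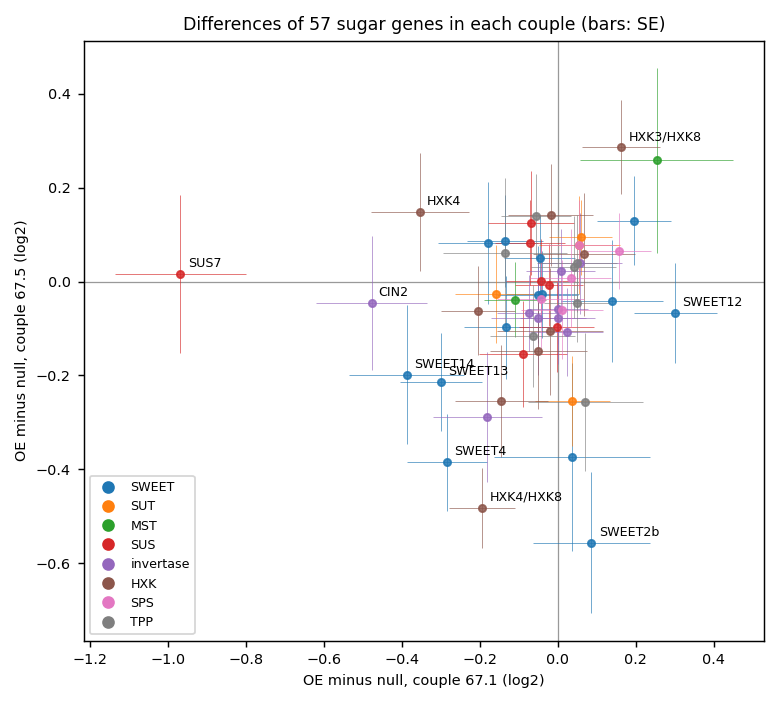
Log2 difference between the overexpressing and the null line in couple 67.1 (x axis) and couple 67.5 (y axis) for the 57 genes, coloured by family, with SE bars. SWEET4, SWEET13, SWEET14 and HXK4/HXK8 lie below 0 in both couples, SUS7 and CIN2 below 0 mainly in couple 67.1 and SWEET2b in couple 67.5.

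The transformed families were also compared with each other, between the null lines, which carry no transgene, and between the overexpressing lines. No member passed between the null lines (0.231% of all tested probe sets), and 11 members had an unadjusted p below 0.05 (19.3%, against 17.5% of all). The arrays of the null lines did not overlap for 7 members that were higher and 7 that were lower in null 67.1 (12.3% each, against 9.74% and 11.4% of all). Between the overexpressing lines 14 members had an unadjusted p below 0.05 (24.6%, against 25.7% of all). Their arrays did not overlap for 4 members that were higher and 11 that were lower in OE 67.1 (7.02% and 19.3%, against 12.0% and 18.3% of all). All 5 SPS entries were lower in the 67.1 line in both comparisons, where 53.2% and 53.9% of all tested probe sets were. The differences of the 3 SPS entries with an F in their symbol lay between -0.24 and -0.20 for the null lines and between -0.24 and -0.11 for the overexpressing lines, and none passed. SPS2 (LOC9267741), of the solanesyl diphosphate synthase symbols, had -0.35 ± 0.10 and -0.33 ± 0.10 (adjusted p = 0.134 and 0.0942). TPP3 (LOC4343959) was measured at 5.51, 5.64 and 5.07 in OE 67.1 and at 5.11, 4.65 and 4.95 in OE 67.5. These TPP3 arrays overlapped, and the difference of 0.51 ± 0.15 did not pass (adjusted p = 0.0772). The SWEET12 arrays also overlapped, at 3.75 to 4.19 in OE 67.1 and 3.57 to 3.76 in OE 67.5. SWEET12 was higher in OE 67.1 than in OE 67.5 by 0.36 ± 0.11 (adjusted p = 0.0820). Both had their lowest adjusted p without OE 67.1 replicate 3, where 3.83% of all tested probe sets passed, and reached 0.252 and 0.280 without other arrays. Without OE 67.1 replicate 3, whose values of TPP3 and SWEET12 were the lowest of its line, TPP3 (adjusted p = 0.0308), SWEET12 (0.0294) and CIN2 (0.0405) passed beside HXK4 (LOC4342654). Without null 67.5 replicate 1, HXK4/HXK8 (adjusted p = 0.0407) and TPP7 (0.0449) passed between the null lines beside SWEET2b and SUS7, in a fit where 4.59% of all tested probe sets passed.

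**Figure D5:**
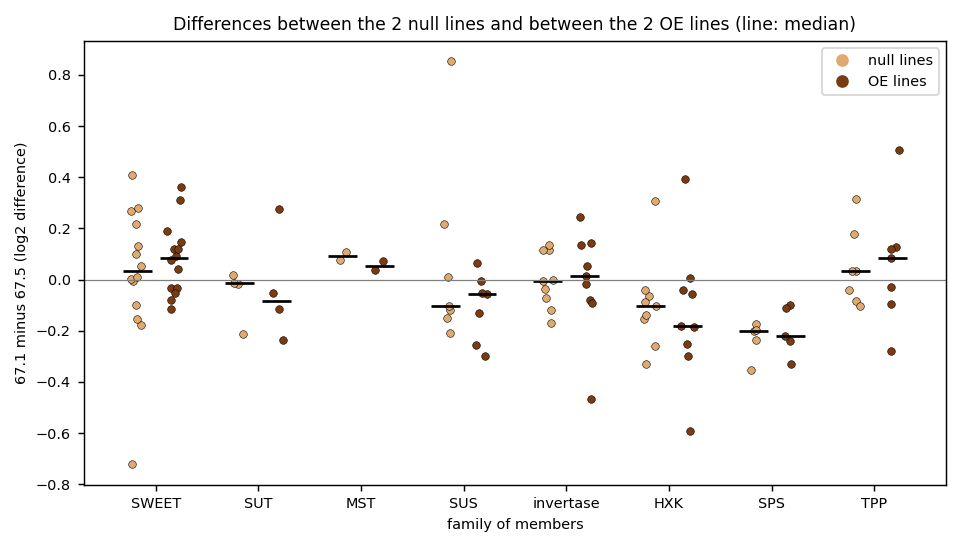
Log2 difference of line 67.1 minus line 67.5 for each gene (points) by family, for the null lines (light) and for the overexpressing lines (dark), with the family's median as a bar; sideways scatter only separates points. The SPS entries all lie below 0, and SUS7 (0.85) and SWEET2b (-0.72) are the outermost points of the null lines.

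Genes around the same pathway were given by 26 further genes of starch synthesis and breakdown, fructokinases and sugar signalling, of which PGIP-1, ISAP1 and SSI2 carry symbols of other proteins. On the mean of both couples 14 were higher and 12 lower, with a median of 0.01, and none passed. AMY1.1 (LOC4330832), an alpha-amylase gene that breaks down starch in germinating grain, differed by -0.60 ± 0.12 (adjusted p = 0.0783) at levels of 2.10 to 3.26, and is also one of the endosperm markers above. The endosperm marker AMY3D (LOC4345814) is likewise among the 26, under the symbol AMY1.3. The starch synthase gene SSI (LOC9269493) differed by 0.26 ± 0.08 (adjusted p = 0.298). Between the overexpressing lines 1 of the 26 passed (0.829% of all tested probe sets did, and 0.511% were lower), AMY1.5 (LOC4342055), which was lower in OE 67.1 (-0.46 ± 0.10, adjusted p = 0.0470) and is named after its values were seen.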

How the data were processed

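Biotin-labelled cRNA was hybridised to 1-colour Affymetrix arrays, 1 for each of 12 samples, per the labels' protocols. The deposited log2 values were made with RMA, per the submitters' processing notes; the sources used here give neither its version nor a build. No further scaling was applied. Of 36643 probe sets, the 24251 paired with a gene in the platform annotation were tested, with symbols from RefSeq (assembly ASM3414082v1). Signal over background was not used here. In limma 3.58.1 (R 4.3.3), 1 linear model with a mean for each line took in the 12 arrays and left 8 residual degrees of freedom. Its 6 contrasts were two-sided, and p-values were adjusted by Benjamini-Hochberg over the probe sets tested. Over all tested probe sets the SE had a median of 0.0773 when couples were averaged and of 0.109 within 1 couple. An exact permutation test of 3 against 3 arrays cannot go below p = 0.1. The SE rests on arrays within lines so effects of the transgene and other ways in which sister lines differ cannot be told apart. The fit was run on simulated data with independent noise and no repetition effect. The differences added there were larger than that of HXK4/HXK8, so the simulation does not cover that call. Figures were drawn with matplotlib 3.10.9.

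The members, lists and tests were chosen with earlier results of these data known. Named genes were SWEET4, HXK4/HXK8, members that passed, the 3 smallest p per contrast, and the brightest, the dimmest and the smallest-p member of each family. SWEET11, SWEET14, HXK5/HXK9, SUT1, SPS2 (LOC9267741), the neighbours of CIN2, the NIN genes and members listed as not overlapping were named after their values were seen. Alternatives were the repetition number as a block, leaving out each array, other scalings and filters, another prior variance, and fits of 6 arrays.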

Additional observations from a re-analysis of the deposited data

How the results depend on the processing

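Averaged over couples 1 member passed, with 0 in couple 67.1, 1 in couple 67.5, 0 for the difference between the couples, 0 for the null lines and 1 for the overexpressing lines. Leaving out each array in turn gave 0 for the mean of both couples, 0 to 1 for each couple, 0 for the difference, 0 to 4 for the null lines and 0 to 4 for the overexpressing lines. With all probe sets tested the mean of both couples, couple 67.5 and the overexpressing lines each had 0. With only probe sets brighter than the median, which removes HXK4/HXK8, the mean and couple 67.5 had 0. The null lines then had 2, SUS7 and SWEET2b, where 0.676% of the probe sets kept passed. With a trend and robust prior variance the mean had 0 and the null lines 1, SUS7 (0.272% of all passed). After further quantile normalization the null lines had 1, again SUS7 (0.247% of all), and the overexpressing lines 0. Fits of only the 6 arrays compared gave 0 for couple 67.5 and 0 for the overexpressing lines. With the replicate number as a block, 2 members passed between the null lines, SUS7 (adjusted p = 0.0343) and SWEET2b (0.0351), that is 3.51% of 57 where 2.09% of all tested probe sets passed. Between the overexpressing lines 6 passed, HXK4 (LOC4342654), TPP3 (0.0364), SWEET12 (0.0407), CIN2 (0.0421), SPS2 (LOC9267741, 0.0475) and HXK5 (0.0482), that is 10.5% where 8.45% of all passed. The block changed no other count. Samples with the same number need not be paired, and whether they were was not tested. Deviations from the line means correlated at -0.251 to 0.422 for arrays with the same number, above 0.1 in 11 of 18 pairs. For arrays with different numbers the range was -0.39 to 0.347. In 21 of 36 combinations of an array with another line, the best match among that line's 3 arrays had the same number. The cause of these changes was otherwise not tested.

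With all 57 members, the number that were lower on the mean of both couples ranged from 35 to 40. Signs turned only among values near 0, none of them past the threshold. SWEET4 between the overexpressing lines was 0.085 after quantile normalization and -0.146 to 0.005 without single arrays. With array medians subtracted, SUS5 was -0.008 and TPP10 was -0.012. Without single arrays the average over couples ran from -0.058 to 0.005 for SWEET6a/SWEET6b, -0.051 to 0.005 for SUS1, -0.026 to 0.039 for SUS5, -0.081 to 0.009 for SPS1, -0.117 to 0.00 for HXK1, -0.017 to 0.027 for TPP10 and -0.119 to 0.067 for TPP7. The deposited values hold no detection call, so how far weak members lie above background is unknown here.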
